A study of Mus musculus with 7 samples.

Results

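Chl1, Cdk5rap2 and Sfi1 are 3 of the 27179 genes in a set of ChIP-seq read counts from mouse pharyngeal arches. Each held far more reads per kb than the median gene of its length. They were chosen by their own counts, chiefly for their level in the input library, so their height over other genes is a description and was not tested. Chromatin came from the first and second pharyngeal arches, the embryonic tissue of jaws, middle ear and neck, of C57BL/6 embryos at E10.5. Embryos homozygous for Kat6a (Moz) with a Flag-V5-BIO tag at its carboxy-terminus gave 3 anti-V5 ChIP libraries (V5) and 1 input library made with no antibody, and embryos with untagged Kat6a gave 3 anti-V5 ChIP libraries (wild type, WT). Kat6a encodes the histone acetyltransferase MOZ; the tag sits in the endogenous locus, so no transgene promoter is involved, and mice with both tagged copies are viable and fertile. The question of the V5 against WT comparison is where tagged MOZ sits, with WT as the antibody's background. The labels do not say whether replicates came from separate litters or pools, so a p-value speaks only of how these libraries scatter, and that scatter may be technical.

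The libraries held 806648 to 3286602 counts in V5, 1288732 to 2504595 in WT and 3488745 in the input. Together the 3 genes took 2.85% to 4.52% of the counts of the V5 libraries, 2.96% to 3.61% in WT and 6.24% of the input. The files hold genomic DNA reads, so the labelled tissue cannot be checked against marker genes.

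Chl1 encodes close homologue of L1, a cell adhesion protein of the immunoglobulin superfamily that guides axons and migrating neurons. Cdk5rap2 encodes a protein of the pericentriolar material that binds the gamma-tubulin ring complex and anchors microtubules at the centrosome; mutations of the human gene cause primary microcephaly. Sfi1 encodes a centrin-binding protein, known best from yeast, where it builds the bridge from which the spindle pole body duplicates. In input DNA a gene is read according to its length and to how often its sequence occurs and can be mapped, whether or not it is transcribed, so a count over a gene body is here a measure of DNA recovered and mapped, not of expression.

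The genes lie on 3 different chromosomes. In RefSeq GRCm38.p6, the assembly behind mm10, Chl1 (GeneID 12661) spans 103510584 to 103733038 on chromosome 6, Cdk5rap2 (GeneID 214444) spans 70216855 to 70410435 on chromosome 4, and Sfi1 (GeneID 78887) spans 3131850 to 3203347 on chromosome 11. The deposited lengths of 222160, 187344 and 61614 bp are 99.9%, 96.8% and 86.2% of these spans, so introns were for the most part counted with the exons. The table gives a single count per gene, so the position of the reads within each gene is not known. Sfi1 overlaps Pisd-ps1 and Eif4enif1 at its ends, and its count is the least certain of the 3 in this respect; the other annotated genes inside these spans have no row in the table.

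Each library was given its own yardstick, the median counts per kb of genes close to it in length (the shorter at least 0.8 times the longer). There were 481 such genes for Chl1, 617 for Cdk5rap2 and 1761 for Sfi1. In the input Chl1 had 937 counts per kb where its yardstick was 2.72, a fold of 345. Sfi1 had 62.0 counts per kb over 3.19, a fold of 19.4, and Cdk5rap2 had 30.3 over 2.68, a fold of 11.3. Among 14348 genes of at least 10 kb only 14, or 0.0976%, stood 5-fold or more over genes of like length in the input. All 3 genes are among them because that is how they were picked, at ranks 1, 3 and 6 for Chl1, Sfi1 and Cdk5rap2.

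**Figure D1:**
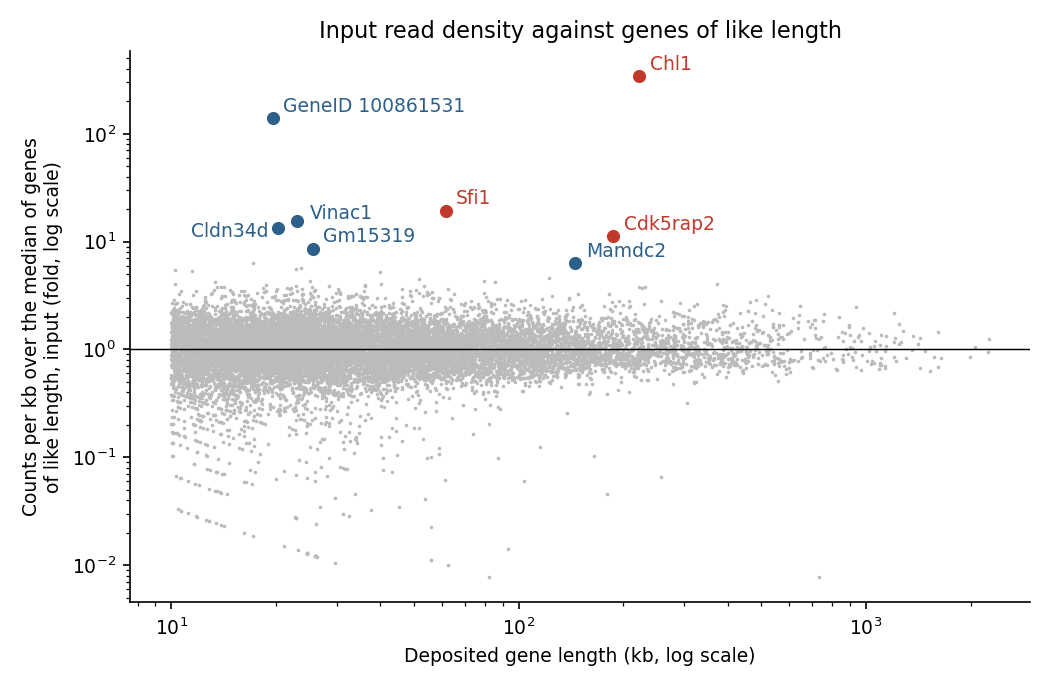
Each point is a gene of at least 10 kb with input reads, placed by its deposited length in kb and by its input counts per kb over the median of genes of like length, both on log scales. Chl1 at 345-fold, Sfi1 at 19.4-fold and Cdk5rap2 at 11.3-fold are in red, and the 5 next highest genes, from GeneID 100861531 at 141-fold to Mamdc2 at 6.33-fold, are in blue.

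The genes ranked around them differ in kind. GeneID 100861531, which has no symbol in the reference used here, stood at 141-fold with 8726 input counts over 19616 bp. Vinac1, of the vinculin and alpha-catenin family, stood at 15.6-fold, the claudin gene Cldn34d at 13.3-fold, the predicted gene Gm15319 at 8.63-fold, and Mamdc2, which encodes a protein with MAM domains, at 6.33-fold. Vinac1 and Cldn34d thus lay above Cdk5rap2 in the input, and Gm15319 and Mamdc2 below it. In the input, then, Chl1 was the highest of all genes of at least 10 kb, while Sfi1 and Cdk5rap2 lay within a short list of others. The ChIP libraries had more or fewer genes at 5-fold or above, with 262, 86 and 11 genes (1.83%, 0.599% and 0.0767%) in V5 replicates 1 to 3 and 23, 21 and 10 (0.16%, 0.146% and 0.0697%) in WT replicates 1 to 3, the most in the shallowest library. Chl1 ranked 1, 2 and 1 in V5, second to GeneID 100861531 in replicate 2, and 1 in every WT library. Cdk5rap2 ranked 4, 4 and 5 in V5 and 4, 4 and 5 in WT. Sfi1 ranked 12, 7 and 6 in V5 and 8, 7 and 6 in WT.

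Being extreme in the input described Chl1 and Sfi1 better than Cdk5rap2. The input had the highest share of the 7 libraries for Chl1 and for Sfi1, and the lowest for Cdk5rap2. In the whole table the input lay above all 6 ChIP libraries in 14.9% of the 14575 genes with enough counts and below all 6 in 13.0%, so neither position is rare. With a single input library this is a comparison of libraries with no replicate check.

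**Figure D2:**
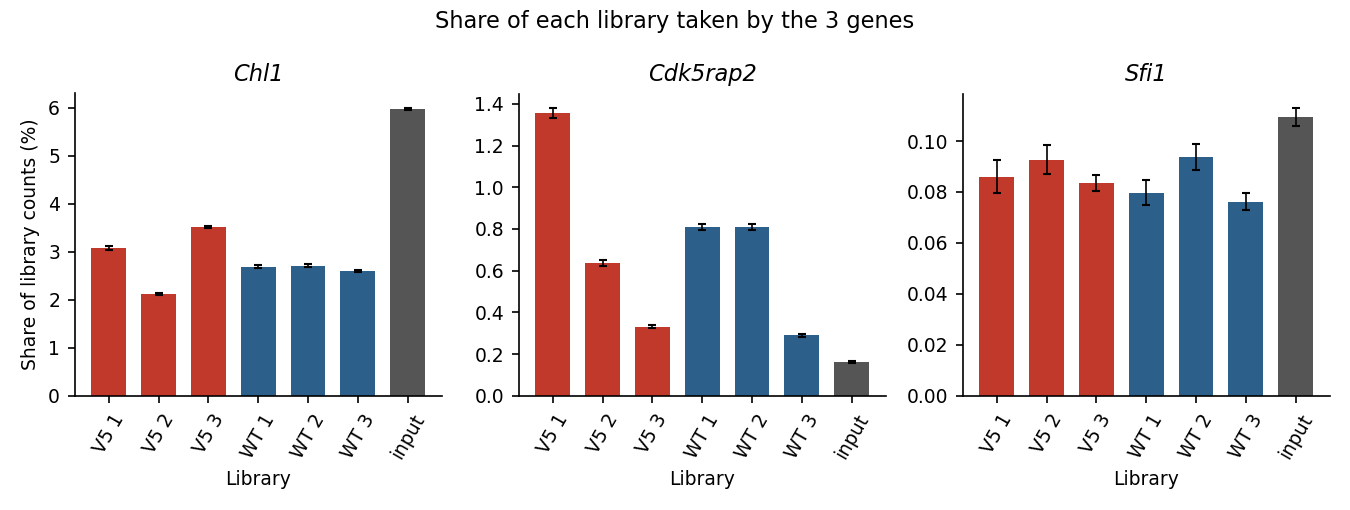
Bars give the percent of all counts of a library that fell in Chl1, Cdk5rap2 and Sfi1, with exact 95% binomial intervals for counting error as black whiskers; each panel has its own axis. Chl1 and Sfi1 are highest in the input, at 5.97% and 0.109%, and Cdk5rap2 is lowest there, at 0.163%.

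Whether the tag changed any of the 3 was asked with edgeR's quasi-likelihood test over all 14575 genes with enough counts. None of the 3 passed, in a table in which 0.0% of genes were called higher and 0.0% lower in V5 after Benjamini-Hochberg adjustment. Without adjustment 600 of the 14575 genes had an edgeR p under 0.05, none of these 3 among them. DESeq2 also called 0 after adjustment. In counts per 1e6 counts of the library (CPM) the V5 and WT libraries overlapped for all 3 genes; over the tested genes all V5 libraries lay above all WT libraries in 4.83% and below them in 5.27%.

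Of the 3 genes Chl1 took the largest share of every library. Its counts were 24802, 24136 and 115201 in V5 (replicates 1 to 3), 34654, 35925 and 64981 in WT (replicates 1 to 3), and 208194 in the input. As a share these were 3.07%, 2.12% and 3.51% in V5, 2.69%, 2.71% and 2.59% in WT, and 5.97% in the input (exact 95% binomial interval 5.94% to 5.99%, counting error only). The WT libraries lay within a narrow range, and the V5 libraries surrounded it, with replicates 1 and 3 above and replicate 2 below. Means were 29000 ± 7089 CPM in V5 and 26633 ± 602 in WT (SD, n = 3 each), against 59676 in the input. V5 over WT gave a log2 fold change of 0.15, with an SE of 0.21 and an adjusted p of 0.988 by edgeR.

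V5 replicate 2 decided that call. Without it Chl1 had a log2 fold change of 0.34 (edgeR adjusted p = 0.00126), and its SE fell from 0.21 to 0.051. Chl1 was then 1 of 2 genes called among 15574 tested, beside Rrp9, which encodes a protein of ribosomal RNA processing. That fit left out the V5 library that lay below WT, so no conclusion about the tag is drawn from it. limma-voom, run on all 6 libraries, also called Chl1 as higher in V5, at 0.37 (adjusted p = 7.88e-09). On the same 6 libraries edgeR gave 0.15 and DESeq2 0.16, and neither called it. Both group means, V5 and WT, stood at 0.486 and 0.446 times the input value. Measured against genes of like length, which takes the library total out of the calculation, Chl1 stood at 155-, 102- and 167-fold in V5, 127-, 129- and 121-fold in WT, and 345-fold in the input. On this scale V5 minus WT was 0.14 in log2 (two-sided exact permutation test, p = 0.5), and 3 against 3 libraries cannot go below 0.1.

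Cdk5rap2 varied most. Its counts were 10931, 7235 and 10885 in V5, 10441, 10754 and 7257 in WT, and 5676 in the input. Its share was 1.36%, 0.636% and 0.331% in V5 replicates 1 to 3, 0.810%, 0.810% and 0.290% in WT replicates 1 to 3, and 0.163% in the input. Replicates of the same group differed more than the groups did, and the 3 deepest libraries (WT replicate 3, V5 replicate 3 and the input) had the lowest shares.

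The means of Cdk5rap2 were 7739 ± 5258 CPM in V5 and 6367 ± 3005 in WT (SD, n = 3 each), against 1627 in the input. That made a log2 fold change of 0.35, with an SE of 0.76 and an adjusted p of 0.992 by edgeR, and its direction turned to -0.42 without V5 replicate 1 and to -0.01 without WT replicate 3. Over genes of like length it stood at 81.9-, 36.5- and 18.8-fold in V5, 45.4-, 46.1- and 16.1-fold in WT, and 11.3-fold in the input. The log2 difference was 0.25 (two-sided exact permutation p = 0.9). The biological coefficient of variation that edgeR fitted to Cdk5rap2 was 0.620, where the common value over genes was 0.387, and it was 0.185 for Chl1 and 0.166 for Sfi1.

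The raw count of Cdk5rap2 hardly followed sequencing depth. Its highest count was 1.93 times its lowest, although the largest library total was 4.32 times the smallest. Among the 179 genes that averaged at least 1000 counts the median of this ratio was 4.63, and Cdk5rap2 had the third lowest, after Vinac1 at 1.52 and Mdga2, a neuronal adhesion gene, at 1.55. In CPM its highest ChIP value was therefore 4.68 times its lowest, the widest range of the 179 genes, whose median was 1.28. The reads beyond what genes of like length would give were 10797, 7037 and 10307 in V5, 10211, 10521 and 6806 in WT, and 5175 in the input. The number in the smallest library, V5 replicate 1, was thus above that in the far deeper V5 replicate 3.

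**Figure D3:**
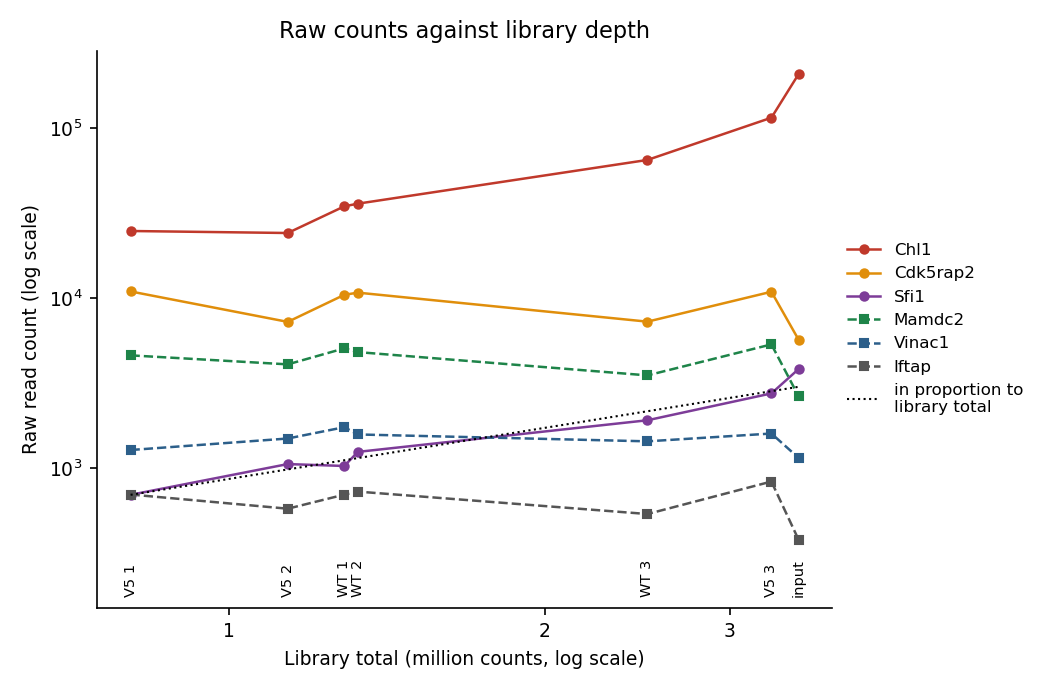
Raw read counts of 6 genes are plotted against the total of each of the 7 libraries, both on log scales, with a dotted line for a count in proportion to the total. Chl1 and Sfi1 are highest in the 3 deepest libraries, while the highest counts of Cdk5rap2, Mamdc2, Vinac1 and Iftap are 1.52 to 2.20 times their lowest, which are in the input.

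Several genes on other chromosomes had a profile across libraries like that of Cdk5rap2. Of 4610 genes that averaged at least 50 CPM, the 3 closest in log2 CPM over the 7 libraries were Iftap (chromosome 2, an intraflagellar transport associated gene; Pearson r = 0.994), Mamdc2 (chromosome 19, r = 0.993) and Cenpu (chromosome 8, a kinetochore gene; r = 0.982). Over the 6 ChIP libraries alone the values were 0.994, 0.987 and 0.971. These are descriptions, and the points share library totals and depth.

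Mamdc2 held 4596, 4068 and 5332 counts in V5, 5054, 4804 and 3503 in WT, and 2636 in the input. The ratio of Cdk5rap2 to Mamdc2 reads was 2.38, 1.78 and 2.04 in V5, 2.07, 2.24 and 2.07 in WT, and 2.15 in the input. The highest of these ratios was 1.34 times the lowest, while the CPM of both genes moved several-fold. Iftap, with 697, 575 and 831 counts in V5, 696, 725 and 535 in WT and 377 in the input, gave ratios of 12.6 to 15.7 over the 7 libraries. Cenpu had 135, 99 and 169 counts in V5, 124, 139 and 150 in WT, and 130 in the input. Its raw ratios of 43.7 to 84.2 followed less closely and moved 1.93-fold. Raw counts include the reads that genes of like length would give, 217 of the 377 for Iftap in the input. Beyond these Iftap held 501 reads in V5 replicate 2 and 160 in the input, where Cdk5rap2 held 7037 and 5175. On such excess reads the Iftap ratio was not near-fixed, and the order of Iftap and Cenpu did not hold. Vinac1 gave ratios of 4.86 to 8.58, a 1.77-fold move, and its counts were 1274, 1489 and 1593 in V5, 1736, 1573 and 1433 in WT, and 1144 in the input. Iftap stood 14.6-fold over genes of like length in V5 replicate 1, where 1.83% of genes reached 5-fold, and 1.74-fold in the input. None of Mamdc2, Iftap and Vinac1 passed between V5 and WT by edgeR (adjusted p = 0.992 for Mamdc2 and Iftap and 0.997 for Vinac1).

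**Figure D4:**
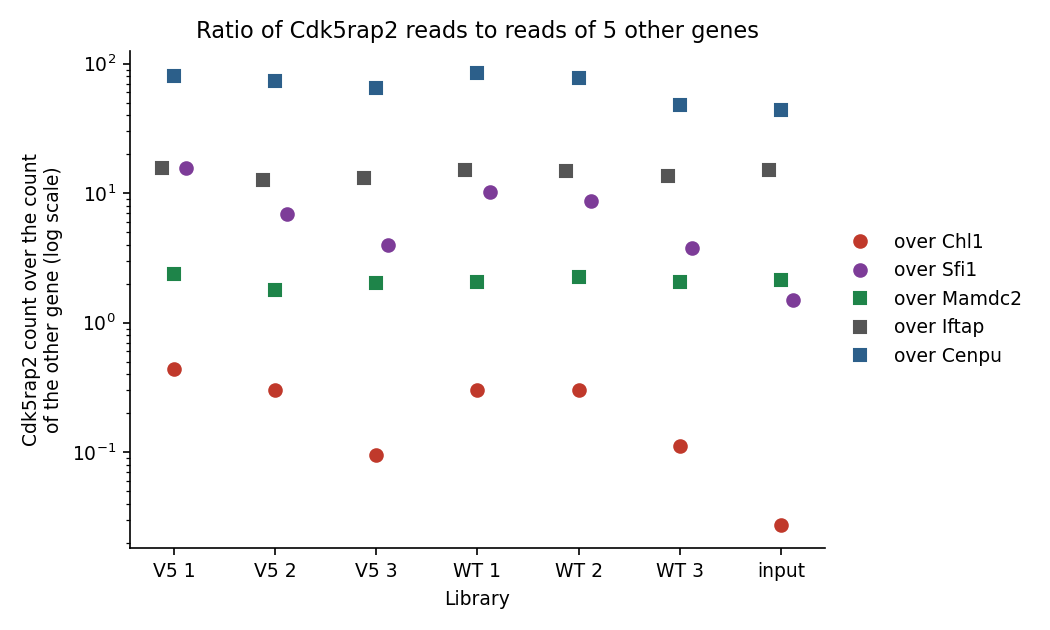
Points give the Cdk5rap2 count divided by the count of Chl1, Sfi1, Mamdc2, Iftap or Cenpu in each library, on a log scale. Among these ratios of raw counts, those to Mamdc2 (1.78 to 2.38) and Iftap (12.6 to 15.7) moved least. Those to Cenpu (43.7 to 84.2) moved 1.93-fold, and those to Chl1 (0.0273 to 0.441) and Sfi1 (1.49 to 15.8) moved 16.2- and 10.6-fold.

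Sfi1 was the steadiest of the 3. It held 694, 1053 and 2744 counts in V5, 1026, 1242 and 1907 in WT, and 3819 in the input. Its share was 0.0860%, 0.0925% and 0.0835% in V5, 0.0796%, 0.0936% and 0.0761% in WT, and 0.109% in the input (exact 95% binomial interval 0.106% to 0.113%). The ChIP groups overlapped, and the input lay above them all. Means were 873 ± 46.4 CPM in V5 and 831 ± 92.2 in WT (SD, n = 3 each), with V5 over WT at 0.10 in log2, an SE of 0.12 and an adjusted p of 0.984 by edgeR. Leaving out WT replicate 3 gave 0.033 and leaving out WT replicate 2 gave 0.19.

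Against genes of like length Sfi1 stood at 16.3-, 16.2- and 14.1-fold in V5, 13.9-, 16.4- and 12.9-fold in WT, and 19.4-fold in the input. It was second among them in V5 replicates 1 and 2 and WT replicate 1, and first in the other libraries. Where it was second it held 11.3, 17.1 and 16.7 counts per kb, against 11.5, 17.4 and 16.9 for the first. The log2 difference of V5 and WT was 0.11 (two-sided exact permutation p = 0.5). Its counts followed depth, the highest being 5.50 times the lowest. In CPM its highest ChIP value was 1.23 times its lowest, below the median of 1.28 for the 179 genes that averaged at least 1000 counts. The V5 and WT means were 0.798 and 0.759 times the input value, a smaller distance than for Chl1.

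The 3 genes did not move as a set. The ratio of Chl1 to Cdk5rap2 reads was 2.27, 3.34 and 10.6 in V5, 3.32, 3.34 and 8.95 in WT, and 36.7 in the input. For Chl1 to Sfi1 it was 35.7, 22.9 and 42.0 in V5, 33.8, 28.9 and 34.1 in WT, and 54.5 in the input. The Chl1 to Sfi1 ratio had the narrowest range over the ChIP libraries. In CPM the highest ChIP value of Chl1 was 1.65 times its lowest, the 19th widest of the 179 genes averaging at least 1000 counts. Sfi1 varied less, at 1.23 times, below the median of 1.28 for those genes. In log2 CPM over the 6 ChIP libraries no pair rose and fell closely together. There r was -0.27 for Chl1 and Sfi1, 0.48 for Cdk5rap2 and Sfi1, and -0.08 for Chl1 and Cdk5rap2. With the single input added, over 7 libraries, r was 0.62, -0.32 and -0.63 in the same order. The sign thus turned with the input for Chl1 and Sfi1 and for Cdk5rap2 and Sfi1. Two-sided exact permutation p values for V5 against WT were 0.9, 1.0 and 0.9 for Chl1 to Cdk5rap2, Chl1 to Sfi1 and Cdk5rap2 to Sfi1. All 6 permutation tests had an adjusted p of 1.0. With 3 against 3 libraries the smallest p such a test can give is 0.1, which lies above the threshold. No ratio could therefore have passed, and no conclusion about the tag is drawn from these tests.

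The genes with profiles closest to Chl1 and Sfi1 each stood higher over genes of like length in the input than in any ChIP library. For Chl1 they were the vomeronasal receptor gene Vmn2r91 (r = 0.982 over 7 libraries and 0.923 over the 6 ChIP libraries), the inflammasome gene Nlrp1b (0.963 and 0.909) and the signal-regulatory protein gene Sirpb1a (0.947 and 0.742). Vmn2r91 and Sirpb1a stood at 0.523- to 1.22-fold over genes of like length in V5 and 0.794- to 1.08-fold in WT, against 3.32- and 3.44-fold in the input. For Sfi1 they were the phospholipid flippase gene Atp9a (0.943 and 0.840), the chaperone gene Dnajc5b (0.939 and 0.854) and the vomeronasal receptor gene Vmn2r56 (0.934 and 0.822). Vmn2r91 and Vmn2r56 belong to a receptor family with near-identical copies, whose counts are uncertain. These correlations rest in part on the input, which stood apart from the ChIP libraries.

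Flanking genes did not share the high counts. The nearest genes with reads on either side of Chl1 are Cntn3 and Cntn6, which encode contactins, adhesion proteins of the same superfamily; they lie 945970 and 759624 bp away and stood at 1.33- and 1.52-fold over genes of like length in the input. Beyond them Gm9871 stood at 2.03-fold and Gm19757 at 0.770-fold. Beside Cdk5rap2, Megf9 begins 21492 bp from its end. Megf9 stood at 0.927-, 0.785- and 1.19-fold in V5, 1.34-, 1.51- and 1.49-fold in WT, and 0.907-fold in the input. In CPM its V5 libraries all lay below its WT libraries, as they did in 5.27% of the tested genes. edgeR did not call Megf9 (log2 fold change -0.57, adjusted p = 0.980). Brinp1, Tlr4 and Tle1 stood at 0.916-, 1.08- and 0.821-fold in the input. Sfi1 has no gene with reads before it that does not overlap it, and after it Drg1 stood at 1.77-fold and Patz1 at 0.745-fold. Of the genes that overlap Sfi1, Pisd-ps1 held 82 input counts and Eif4enif1 held 222, against 3819 for Sfi1.

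Genes that work with the 3 proteins stood near the yardstick, as genes did in general: the median over all genes of at least 10 kb was 1.00 in the input, and 0.0976% of them reached 5-fold. Among 15 genes of the L1 family and its partners the median fold in the input was 0.929, from Cntn2 at 0.507 to Cntn5 at 1.72, and none reached 5-fold. L1cam, Nrcam and Nfasc, the other members of the L1 family, stood at 0.508-, 0.979- and 0.752-fold, against 345-fold for Chl1. Among 24 pericentriolar and microcephaly genes the median was 0.920, from Sass6 at 0.558 to Cdk5r1 at 2.18, and none reached 5-fold. Pde4dip, which encodes the paralogue of CDK5RAP2 called myomegalin, stood at 0.883-fold and pericentrin (Pcnt) at 1.14-fold. Among 14 centrin and centriole genes the median was 0.918, from Poc5 at 0.560 to Cetn1 at 3.70, a fold that rests on 4 input counts. Between V5 and WT, edgeR called 0 of the 15, 22 and 11 tested genes of these lists in either direction, as it called 0.0% of all genes. Their median log2 fold changes were 0.05, -0.03 and 0.08, where the median of all genes tested was 0.02.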

How the data were processed

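Per the file headers, the deposited values are raw counts of reads for each gene, beside an Entrez identifier and a length in bp (below 0 for 1 gene with no reads). Tools named in the submitters' processing notes are bcl2fastq, featureCounts and MACS, with build mm10 but no roles. The aligner and the handling of multi-mapped and duplicate reads were not given in the sources used here. Symbols and coordinates came from RefSeq GRCm38.p6, which matched 25275 of 27179 identifiers. The table per library held the same counts as the joint table. Every pair of libraries differed by more than sampling noise (chi-square per degree of freedom at least 4.03).

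The V5 against WT fit used edgeR 4.0.16 under R 4.3.3: filterByExpr (minimum count 10), TMM, robust glmQLFit and glmQLFTest, Benjamini-Hochberg over all tested genes and a threshold of 0.05; limma 3.58.1 and DESeq2 1.42.0 were alternatives. The edgeR fit was tested on simulated data. Permutation tests and exact binomial intervals used scipy 1.17.1. CPM is the count per 1e6 counts of the library; correlations used log2 CPM with a prior count of 0.5. A duplicate read is not an independent molecule, so intervals cover counting error only.

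Members, lists and tests were chosen with earlier results of these data known. Genes named were the 3 members, the nearest 2 genes with reads on each side, the 5 next highest in input fold among genes of at least 10 kb, the 3 closest profiles per member, and the highest and lowest of each list. Mdga2, Rrp9, L1cam, Nrcam, Nfasc, Pde4dip, Pcnt, the overlapping genes and the comparison of counts with depth were added after their values were seen. The main fit did not treat replicate numbers as pairs.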

Additional observations from a re-analysis of the deposited data

How the results depend on the processing

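Of 99 values recomputed under the alternatives, 79 kept their direction and their side of the threshold. Another 13 turned direction, 12 of them on leaving out a library. The 99 include folds over genes of like length and ratios, whose permutation tests could not pass the threshold with so few libraries. For those values only the direction could change, so their side of the threshold carries no information. The number of genes called between V5 and WT, 0 in the fit reported, was 9 without a filter on low counts, 4 with limma-voom, 1 with the replicate block, and 0 to 2 when each library was left out in turn. Neither Cdk5rap2 nor Sfi1 was called under any alternative. Chl1 was called by limma-voom, at 0.37, and its value ranged from 0.033 to 0.34 (log2) with a library left out, past the threshold only without V5 replicate 2. Sfi1 ranged from 0.033 to 0.19. Over genes of like length Chl1 ranged from 0.0032 to 0.36 and Sfi1 from 0.035 to 0.21. Cdk5rap2 stood at -0.18 with limma-voom and at -0.42 to 0.72 with a library left out; over genes of like length the latter range was -0.30 to 0.76. With a library left out, the log2 difference ranged from -0.75 to 0.37 for Chl1 to Cdk5rap2, from -0.17 to 0.27 for Chl1 to Sfi1 and from -0.41 to 0.58 for Cdk5rap2 to Sfi1. The cause was not tested. Over all genes, same-numbered V5 and WT libraries hardly deviated together (correlations of 0.01 to 0.06). A value over all genes cannot exclude pairing for a single gene, so whether the numbers pair the libraries is not known. With the replicate block Chl1 stood at 0.12, Cdk5rap2 at 0.22 and Sfi1 at 0.10. The edgeR SE of Cdk5rap2 fell from 0.76 to 0.33 with the block. Those of Chl1 (0.21 and 0.22) and Sfi1 (0.12 in both fits) hardly moved. The only gene called with the block was GeneID 100861531. The single input and the lack of positions within genes limit what the counts can show.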
